A study of Mus musculus with 6 samples.

Results

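Messenger RNAs of 10 SR splicing factors were followed across the 6 libraries of an RNA sequencing study in A375 cells, a long-established line from a human melanoma. The set was chosen by name, as the rows of the deposited gene table that hold SRSF1, SRSF2, SRSF3, SRSF4, SRSF5, SRSF6, SRSF7, SRSF11, TRA2A and TRA2B, and all 10 were found among 62492 gene identifiers. All 10 also passed the filter of a mean of at least 1 FPKM, as did 12578 genes in all. FPKM is the number of fragments per kilobase of gene model, scaled to the library's total fragments. Comparisons of level between genes hold for this scale only. They depend on the gene models and on the handling of shared reads, which are not given.

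The libraries fall into 3 groups of 2, with guide RNAs against YAE1, guide RNAs against ABCE1, and control guide RNAs against LacZ or Luciferase, neither of which is a gene of these cells. Cas9 and a guide were delivered by lentivirus to every culture, controls included, and cells were collected 7 days after selection in puromycin at 10 µg/mL. The second YAE1 and ABCE1 libraries carry a genotype label whose gene name ends in 2, so groups were taken from the titles. Whether both libraries of a group carry the same guide, or come from separate cultures, is not stated, and the p-values therefore speak only to variation among the libraries at hand, possibly technical. The RNA came from whole selected populations, in which edited and unedited cells were not separated, and fewer cells with a transcript cannot be told apart from less of it per cell. Levels of the targeted genes and of melanocyte markers were not analysed here, because the deposited table gives identifiers without symbols.

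SR proteins carry RNA recognition motifs and a tail rich in arginine and serine. They bind enhancer sequences in exons, recruit the spliceosome and so promote the inclusion of those exons. Their own genes hold poison exons, highly conserved cassette exons with a premature stop codon. A transcript that includes such an exon is degraded by nonsense-mediated decay, and many SR proteins promote inclusion of the poison exon of their own gene or of a relative, which limits their level. ABCE1 separates ribosomal subunits after termination, and YAE1 acts with LTO1 to deliver an iron-sulfur cluster to ABCE1. The series title links the LTO1 complex to nonsense-mediated decay. A gene-level FPKM value sums productive and poison-exon transcripts, so the values below do not separate them, and no sequence of these exons is shown.

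The total by which FPKM was scaled was 15713011 to 18399718 fragments per library, as worked out from the steps between low FPKM values. Fragments that were sequenced but left out of this total cannot be seen. The members were counted by 1706.5 (TRA2A) to 12550.5 (SRSF3) fragments per library, a fragment adding 1 or 0.5 to a gene, which gives a counting error of 0.893% to 2.42% of a value. The gap between the replicates of a group had a median of 2.0% over the 30 pairs (10 members in 3 groups) and exceeded 2 counting standard deviations in 9 pairs. The widest gap, 14.6%, was that of SRSF11 in the YAE1 libraries. Counting error covers only the sampling of fragments.

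The first question was whether transcripts of these factors differ between cells with YAE1 or ABCE1 guides and cells with control guides. They were mostly lower. With YAE1 guides 8 of the 10 members fell, none rose and 2 did not pass the test, and with ABCE1 guides 7 fell, 1 rose and 2 did not pass (limma on log2(FPKM + 1), adjusted p under 0.05 over all 12578 genes). Among all tested genes 17.6% were called lower and 34.2% higher with YAE1 guides, and 20.4% lower and 37.5% higher with ABCE1 guides. Among the 4555 genes averaging 10 FPKM or more, the range in which every member lies, 26.0% were lower and 35.0% higher with YAE1 guides, and 29.1% lower and 37.9% higher with ABCE1 guides. The members' median log2 change was -0.38 with YAE1 guides and -0.31 with ABCE1 guides, beside a median over all tested genes of 0.10 in both comparisons. Over the 4555 genes averaging 10 FPKM or more the median was 0.045 with YAE1 guides and 0.046 with ABCE1 guides. Both comparisons use the same control libraries, so they are not independent of each other.

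The summed level of the 10 members was 399 and 393 FPKM in the YAE1 libraries, 398 and 406 FPKM in the ABCE1 libraries, and 529 and 519 FPKM in the control libraries. All knockout libraries were thus below both control libraries, and the sums of the knockout groups overlapped each other. The group mean fell by 24.4% with YAE1 guides and fell by 23.3% with ABCE1 guides. No p is given for this sum, because the members were chosen with earlier results of these data known. Libraries of 9 members did not overlap between YAE1 and control, and of 9 members between ABCE1 and control, as was the case for 77.7% and 81.5% of all tested genes.

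**Figure D1:**
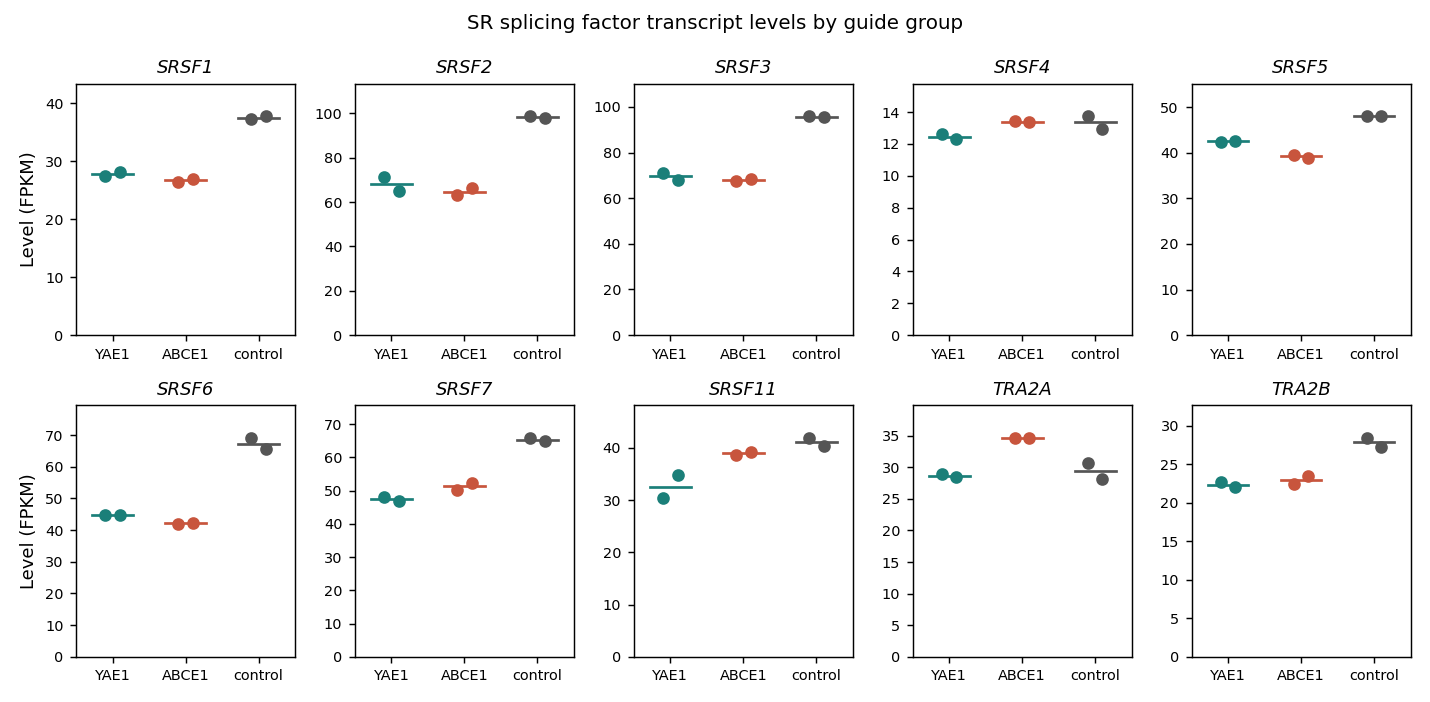
Level of each member in FPKM (vertical axes, each from 0) in the 2 YAE1, 2 ABCE1 and 2 control libraries. Points are libraries and bars are group means. SRSF1, SRSF2, SRSF3, SRSF5, SRSF6, SRSF7, SRSF11 and TRA2B lie lower in all 4 knockout libraries than in both controls, SRSF4 lies between 12.3 and 13.7 FPKM in all libraries, and TRA2A is highest with ABCE1 guides.

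SRSF1, SRSF4, SRSF5 and SRSF6 are the members with a pair of RNA recognition motifs. SRSF1 (ENSG00000136450), the prototype of the family, which binds purine-rich exonic enhancers and also shuttles to the cytoplasm, had 27.4 and 28.1 FPKM in the YAE1 libraries, 26.5 and 26.9 FPKM in the ABCE1 libraries, and 37.4 and 37.8 FPKM in the control libraries. The knockout libraries all lay well under the controls. Its log2 change was -0.42 ± 0.04 with YAE1 guides (SE, limma adjusted p = 0.00035) and -0.48 ± 0.04 with ABCE1 guides (limma adjusted p = 0.00015).

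SRSF6 (ENSG00000124193, SRp55), which binds exonic enhancers, had the lowest log2 change of the 10 in both comparisons, except that SRSF2 was lower with YAE1 guides without YAE1 replicate 1 (-0.59, against -0.58 for SRSF6). It had 44.7 and 44.8 FPKM in the YAE1 libraries, 41.9 and 42.4 FPKM in the ABCE1 libraries, and 69.0 and 65.6 FPKM in the control libraries, with no overlap between any of the 3 groups. The log2 change was -0.58 ± 0.04 with YAE1 guides (limma adjusted p = 0.00013) and -0.66 ± 0.04 with ABCE1 guides (limma adjusted p = 5.2e-05). Of all tested genes, 5.5% had a lower change than SRSF6 with YAE1 guides and 4.4% with ABCE1 guides.

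SRSF5 (ENSG00000100650, SRp40), known from rat liver as an insulin- and growth-induced factor, changed less. It had 42.4 and 42.6 FPKM in the YAE1 libraries, 39.5 and 38.9 FPKM in the ABCE1 libraries, and 48.0 and 47.9 FPKM in the control libraries. Groups did not overlap, and the log2 change was -0.17 ± 0.04 with YAE1 guides (limma adjusted p = 0.0099) and -0.28 ± 0.04 with ABCE1 guides (limma adjusted p = 0.0009). The YAE1 call was lost without control replicate 1 (limma adjusted p = 0.063) and without control replicate 2 (limma adjusted p = 0.059), while the change itself stayed at -0.17.

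SRSF4 (ENSG00000116350, SRp75), the member with the longest arginine-serine tail, had the lowest FPKM values. It had 12.6 and 12.3 FPKM in the YAE1 libraries, 13.4 and 13.4 FPKM in the ABCE1 libraries, and 13.7 and 13.0 FPKM in the control libraries. It passed the test in neither comparison. The log2 change was -0.09 with YAE1 guides (95% interval -0.21 to 0.03, limma adjusted p = 0.17) and 0.01 with ABCE1 guides (95% interval -0.11 to 0.13, limma adjusted p = 0.92). With each library centred on its median gene the values were -0.19 (limma adjusted p = 0.023) and -0.13 (limma adjusted p = 0.068), and with quantile normalization -0.15 (limma adjusted p = 0.05, not passed) and -0.11 (limma adjusted p = 0.11).

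SRSF2, SRSF3 and SRSF7 have a single RNA recognition motif. SRSF2 (ENSG00000161547, SC35), a mainly nuclear factor of nuclear speckles that is recurrently mutated in myeloid neoplasms, had 71.1 and 64.8 FPKM in the YAE1 libraries, 63.1 and 66.3 FPKM in the ABCE1 libraries, and 98.6 and 98.1 FPKM in the control libraries. The knockout groups overlapped each other and lay far under the controls. Its log2 change was -0.53 ± 0.05 with YAE1 guides (limma adjusted p = 0.00044) and -0.60 ± 0.05 with ABCE1 guides (limma adjusted p = 0.00019).

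SRSF3 (ENSG00000112081, SRp20), the smallest SR protein, which also recruits the mRNA export receptor, had 71.2 and 67.9 FPKM in the YAE1 libraries, 67.5 and 68.3 FPKM in the ABCE1 libraries, and 95.8 and 95.7 FPKM in the control libraries. Again the knockout groups overlapped and the controls stood apart. Its log2 change was -0.46 ± 0.04 with YAE1 guides (limma adjusted p = 0.00025) and -0.49 ± 0.04 with ABCE1 guides (limma adjusted p = 0.00013).

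SRSF7 (ENSG00000115875, 9G8), a close relative of SRSF3 with an added zinc knuckle, had 48.0 and 46.8 FPKM in the YAE1 libraries, 50.2 and 52.4 FPKM in the ABCE1 libraries, and 65.8 and 64.9 FPKM in the control libraries. Here the YAE1 libraries were the lowest, without overlap. The log2 change was -0.45 ± 0.04 with YAE1 guides (limma adjusted p = 0.00029) and -0.34 ± 0.04 with ABCE1 guides (limma adjusted p = 0.0006).

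SRSF11 (ENSG00000116754, p54) is an SR-related protein that contacts the U2AF splicing factor. It had 30.3 and 34.8 FPKM in the YAE1 libraries, 38.7 and 39.1 FPKM in the ABCE1 libraries, and 41.8 and 40.3 FPKM in the control libraries. The groups did not overlap, but the YAE1 libraries were far apart. It fell with YAE1 guides (log2 change -0.33 ± 0.07, limma adjusted p = 0.0064) and did not pass with ABCE1 guides (-0.08, 95% interval -0.23 to 0.08, limma adjusted p = 0.36). Without YAE1 replicate 1, the lower of the pair, the YAE1 value was -0.24, with 1 YAE1 library left and so no measure of the YAE1 spread. The SE above pools the spread of all 3 groups, whose replicates differed by 14.6% (YAE1), 1.1% (ABCE1) and 3.7% (control). With centring on the median gene the ABCE1 value was -0.21 and passed (limma adjusted p = 0.025), while with quantile normalization it was -0.09 and did not (limma adjusted p = 0.32).

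TRA2A and TRA2B are the human relatives of Drosophila transformer-2, SR-like proteins with an arginine-serine tail on both sides of a single recognition motif, which bind GAA-rich enhancers and can regulate each other's poison exon. TRA2B (ENSG00000136527) had 22.7 and 22.0 FPKM in the YAE1 libraries, 22.5 and 23.4 FPKM in the ABCE1 libraries, and 28.4 and 27.3 FPKM in the control libraries. The knockout groups overlapped each other and lay under both controls. The log2 change was -0.30 ± 0.05 with YAE1 guides (limma adjusted p = 0.0022) and -0.27 ± 0.05 with ABCE1 guides (limma adjusted p = 0.003).

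TRA2A (ENSG00000164548) was the single member that rose. It had 28.9 and 28.4 FPKM in the YAE1 libraries, 34.6 and 34.5 FPKM in the ABCE1 libraries, and 30.7 and 28.1 FPKM in the control libraries. Both ABCE1 libraries were above all others, and the YAE1 libraries lay between the controls. The log2 change was 0.23 ± 0.05 with ABCE1 guides (limma adjusted p = 0.0086) and -0.03 with YAE1 guides (95% interval -0.16 to 0.09, limma adjusted p = 0.60). The ABCE1 call was lost without control replicate 2, the lower control (0.17, limma adjusted p = 0.058), and with centring on the median gene (0.09, limma adjusted p = 0.2), while it held with quantile normalization (0.21, limma adjusted p = 0.013).

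**Figure D2:**
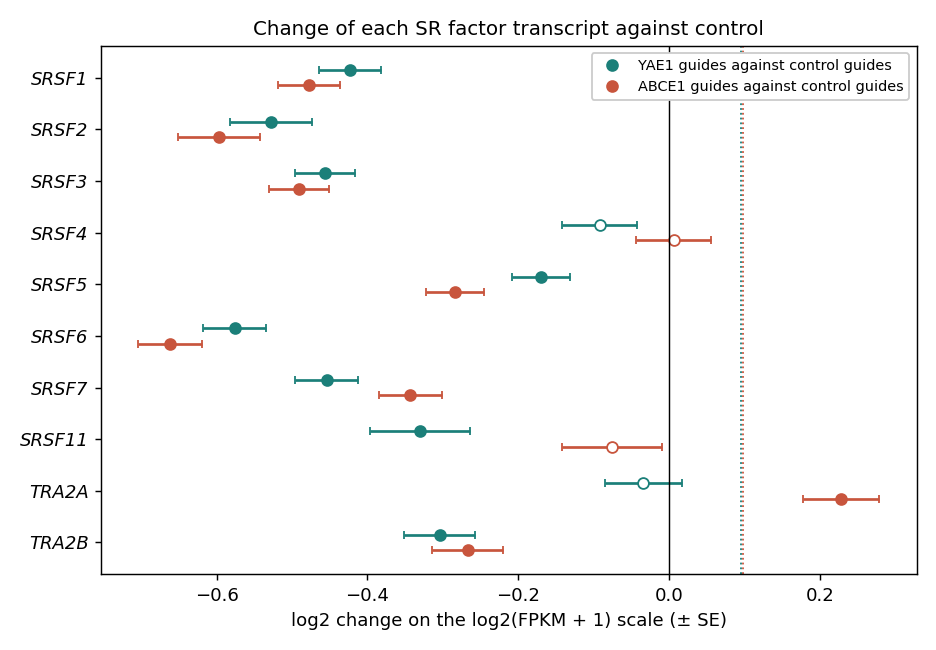
Log2 change of each member on the log2(FPKM + 1) scale with its SE (horizontal axis), for YAE1 guides and ABCE1 guides against control guides. Filled points passed limma at an adjusted p under 0.05, open points did not, and dotted lines mark the median of all 12578 tested genes, 0.10 in both comparisons. Most members lie left of 0, and TRA2A with ABCE1 guides is the single filled point to the right.

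The scaling of the libraries bears on these calls. Centring each library on its median tested gene moved the median of all genes by -0.14 with ABCE1 guides and by -0.10 with YAE1 guides, and quantile normalization moved it by -0.12 and -0.09. After centring, 3014 genes were higher and 3124 lower with YAE1 guides, against 4303 and 2214 on the deposited scale, and 3271 were higher and 3915 lower with ABCE1 guides, against 4715 and 2563. After quantile normalization the counts were 3124 and 2865 with YAE1 guides and 3436 and 3571 with ABCE1 guides. Relative to the median gene, 9 members were lower and none higher with YAE1 guides, and 8 were lower and none higher with ABCE1 guides, with median log2 changes of -0.47 and -0.45. In each comparison SRSF1, SRSF2, SRSF3, SRSF5, SRSF6, SRSF7 and TRA2B were called lower on the deposited scale and after centring.

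From high to low, the order of the levels was SRSF3, SRSF2, SRSF7, SRSF6, SRSF5, SRSF11, TRA2A, SRSF1, TRA2B and SRSF4 in both knockout groups, with SRSF3 and SRSF2 overlapping in the YAE1 libraries and SRSF5 and SRSF11 overlapping in the ABCE1 libraries. In the control libraries SRSF2 came before SRSF3, SRSF6 before SRSF7 and SRSF1 before TRA2A, with overlap between SRSF6 and SRSF7 and between TRA2A and TRA2B. All other neighbours were separated in both libraries of their group, which is a weak criterion with 2 libraries.

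Shares of the members' summed FPKM do not depend on the scaling of a library. SRSF2 held 17.8% and 16.5% in the YAE1 libraries, 15.9% and 16.4% in the ABCE1 libraries, and 18.6% and 18.9% in the control libraries. SRSF6 held 11.2% and 11.4% in the YAE1 libraries, 10.5% and 10.4% in the ABCE1 libraries, and 13.0% and 12.6% in the control libraries. TRA2A held 7.23% and 7.24% in the YAE1 libraries, 8.69% and 8.51% in the ABCE1 libraries, and 5.80% and 5.42% in the control libraries. The share of SRSF6 was thus smaller and that of TRA2A larger in all 4 knockout libraries than in either control. The same separation held for SRSF2 and SRSF3, with smaller shares, and for SRSF4, SRSF5 and TRA2B, with larger shares. A share also grows where a level stays while the sum falls. With YAE1 guides the TRA2A level did not pass (log2 change -0.03, limma adjusted p = 0.60), while the summed level was 24.4% lower.

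Ratios between relatives are equally free of library scaling. The ratio of TRA2A to TRA2B was 1.27 and 1.29 in the YAE1 libraries, 1.54 and 1.47 in the ABCE1 libraries, and 1.08 and 1.03 in the control libraries, so that TRA2A exceeded TRA2B more in each of the 4 knockout libraries than in either control. The ratio of SRSF6 to SRSF4 was 3.55 and 3.64 in the YAE1 libraries, 3.12 and 3.17 in the ABCE1 libraries, and 5.03 and 5.06 in the control libraries. The ratio of SRSF6 to SRSF5 was 1.05 and 1.05 in the YAE1 libraries, 1.06 and 1.09 in the ABCE1 libraries, and 1.44 and 1.37 in the control libraries. In these 3 ratios every knockout library lay outside the range of the controls. Among all tested genes, levels did not overlap for 77.7% between YAE1 and control and for 81.5% between ABCE1 and control. Separation is thus common for the levels of single genes, and no such share was computed for ratios. The ratio of SRSF7 to SRSF3 was 0.675 and 0.689 in the YAE1 libraries, 0.744 and 0.767 in the ABCE1 libraries, and 0.686 and 0.678 in the control libraries, so only the ABCE1 libraries stood apart. The ratio of SRSF11 to SRSF5 was 0.87 and 0.84 in the control libraries. It was lower in the YAE1 libraries (0.72 and 0.82) and higher in the ABCE1 libraries (0.98 and 1.01). The ratio of SRSF5 to SRSF4 was 3.365 and 3.461 in the YAE1 libraries, 2.94 and 2.911 in the ABCE1 libraries, and 3.494 and 3.698 in the control libraries. The ratio of SRSF2 to SRSF1 was 2.592 and 2.304, 2.382 and 2.462, and 2.637 and 2.597, in the same order. Both were lower in every knockout library than in either control, but the nearest YAE1 and control values differed by less than the counting error. These ratios are descriptions, with no test, as for the summed level.

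**Figure D3:**
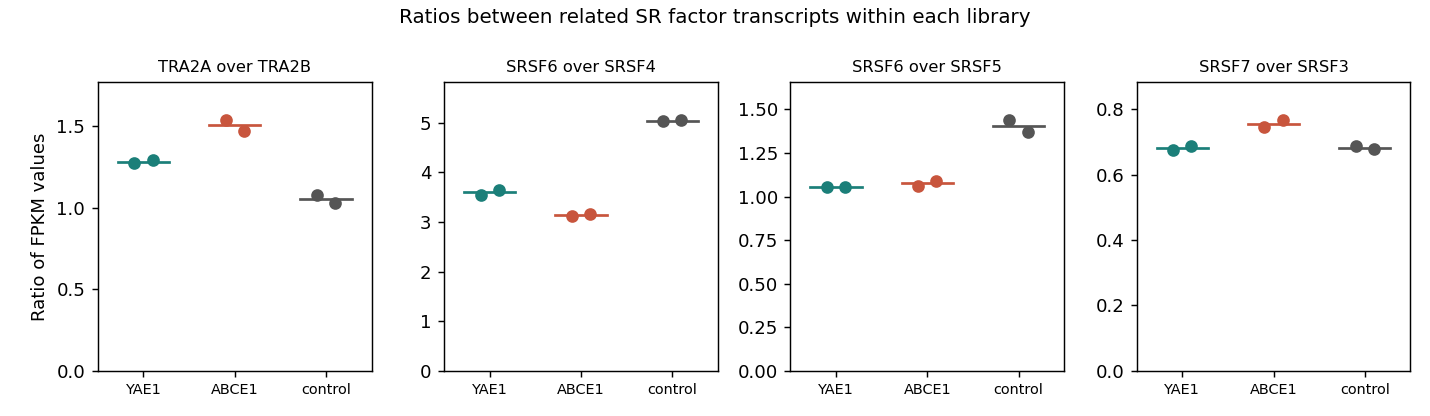
Ratio of FPKM values between related members (vertical axes, each from 0) in the 2 YAE1, 2 ABCE1 and 2 control libraries, with points for libraries and bars for group means. TRA2A over TRA2B is about 1 in the controls and 1.27 to 1.54 in the knockout libraries, while SRSF6 over SRSF4 is about 5 in the controls and 3.12 to 3.64 in the knockout libraries.

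The last comparison asked whether the YAE1 and ABCE1 libraries differ from each other. Of the 10 members 2 were lower with YAE1 than with ABCE1 guides and none was higher. Among all tested genes 18.7% were lower and 15.3% higher, so the members' share called lower is close to that of all genes. With centring on the median gene 2 members were lower and 1 higher, and over all genes 2395 were higher and 1882 lower, against 1928 and 2351 on the deposited scale. Libraries of 7 members did not overlap between the groups, as for 70.2% of tested genes. The members' median log2 difference was -0.001, beside -0.014 over all genes.

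TRA2A was lower with YAE1 guides (28.9 and 28.4 FPKM) than with ABCE1 guides (34.6 and 34.5 FPKM), a log2 difference of -0.26 ± 0.05 (limma adjusted p = 0.012). Leaving out ABCE1 replicate 1 (limma adjusted p = 0.062) or ABCE1 replicate 2 (limma adjusted p = 0.06) ended the call, at an unchanged difference of -0.26. SRSF11 was also lower with YAE1 guides (30.3 and 34.8 FPKM) than with ABCE1 guides (38.7 and 39.1 FPKM), a log2 difference of -0.25 ± 0.07 (limma adjusted p = 0.028). That call did not hold without ABCE1 replicate 1 (-0.26, limma adjusted p = 0.1), ABCE1 replicate 2 (-0.25, limma adjusted p = 0.11), YAE1 replicate 1 (-0.16, limma adjusted p = 0.053) or control replicate 1 (-0.25, limma adjusted p = 0.05).

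For the other members the difference did not pass, and its 95% interval shows how large it could be. SRSF5 had a log2 difference of 0.11 (0.02 to 0.20, limma adjusted p = 0.059), a value that passed with centring on the median gene (0.16, limma adjusted p = 0.026) and with quantile normalization (0.14, limma adjusted p = 0.041). SRSF7 had -0.11 (-0.21 to -0.01, limma adjusted p = 0.082). SRSF6 had 0.09 (-0.02 to 0.19), SRSF1 had 0.06 (-0.04 to 0.15), SRSF2 had 0.07 (-0.06 to 0.20), SRSF3 had 0.04 (-0.06 to 0.13), SRSF4 had -0.10 (-0.22 to 0.02) and TRA2B had -0.04 (-0.15 to 0.08). These intervals are not adjusted for the number of genes.

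**Figure D4:**
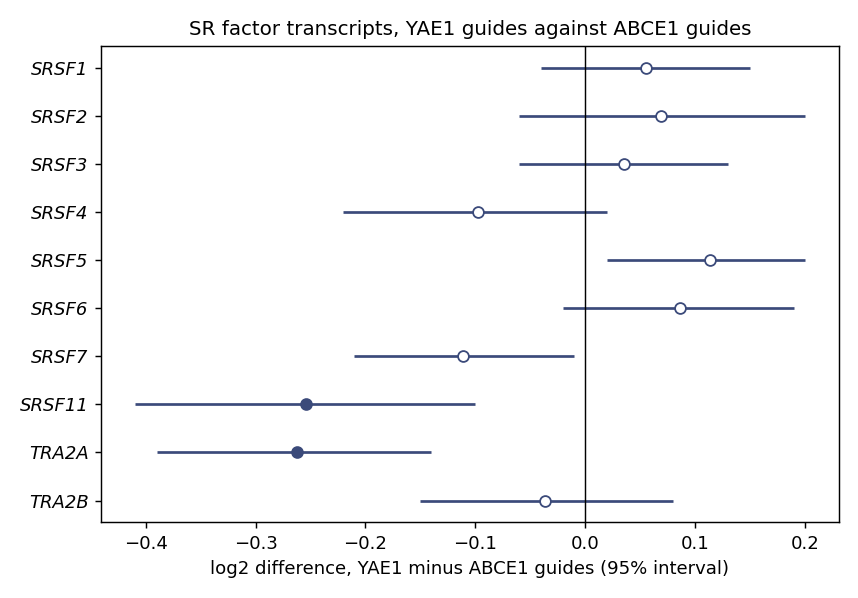
Log2 difference of each member between YAE1 and ABCE1 guides with its 95% interval (horizontal axis, on the log2(FPKM + 1) scale, YAE1 minus ABCE1). Filled points, TRA2A at -0.26 and SRSF11 at -0.25, passed limma at an adjusted p under 0.05, and the other 8 members did not.

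As a description of likeness, the log2 profile of each member over the 6 libraries was set against the mean of the other 9. Pearson's r was 0.993 for TRA2B, 0.986 for SRSF7, 0.972 for SRSF3, 0.96 for SRSF1, 0.959 for SRSF6, 0.951 for SRSF2 and 0.838 for SRSF5. It was lower for SRSF11 (0.642), SRSF4 (0.486) and TRA2A (-0.325). The libraries form 3 groups, so the points are not independent and no p is given. Outside the set, the profiles most like the members' mean were those of ENSG00000116560 (r = 0.999; 70.8 and 68.6 FPKM with YAE1 guides, 72.5 and 74.9 FPKM with ABCE1 guides, 105.5 and 101.3 FPKM with control guides) and ENSG00000239306 (r = 0.999), which the sources used here do not name. An r above 0.9 was found for 806 of the 6283 genes compared, so such a profile is common in these libraries.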

How the data were processed

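The authors deposited 1 table of FPKM values with a column per library and Ensembl identifiers, aligned to GRCh37 per the submitters' processing notes; not given in the sources used here are the aligner, the counting program, the annotation release and how reads shared with near-identical copies were handled, so sharing with pseudogene copies of the members was not tested. The organism label reads mouse, against human in the cell type label. RNA (1 µg) was read as strand-specific 150 bp pairs, per the labels' protocols. Symbols of the 10 members came with the rule that defines the set. The reference tables here are for mouse (0 identifiers matched), so lists of other splicing regulators, the targeted genes and lineage markers were not analysed here and no sequences are shown. Members and lists were chosen with earlier results of these data known. Named genes are all 10 members plus the 2 identifiers with the most similar profile among genes at least as variable as the median member.

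Values were tested as log2(FPKM + 1), which understates changes of low genes, with limma 3.58.1 (R 4.3.3): 1 fit over the 6 libraries with a coefficient for each group (3 residual and 3.6 prior degrees of freedom), eBayes with a trend, two-sided, Benjamini-Hochberg adjustment over 12578 genes averaging 1 FPKM or more, threshold 0.05, 3 comparisons. The recovery of fragments was tested on simulated data. So was the fit, but only for ABCE1 against control and with the same noise setting in every group, so the YAE1 comparisons were not covered. Library totals and fragments per gene were worked back from whole steps of 0.5 fragments (tolerance 0.0001 steps). Recovered fragments of genes averaging 0.2 FPKM or more made up 99.1% to 99.2% of the totals, and a factor common to all 6 values of a gene cannot be seen. Replicates differed beyond sampling noise (chi-square of 4.78, 2.54 and 2.28 per degree of freedom for YAE1, ABCE1 and control). Each library counted as 1 replicate in the fit, although this spread does not show that the replicates are separate cultures. Alternatives changed the pseudocount, the filter, the scaling, the libraries in the fit, a replicate block, and the test (voom on recovered fragments).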

Additional observations from a re-analysis of the deposited data

Results flagged for a closer look

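The difference between YAE1 and ABCE1 guides was itself tested for each member, and it passed for TRA2A (log2 difference -0.26, limma adjusted p = 0.012, lower in 2 of 2 YAE1 libraries than in both ABCE1 libraries) and for SRSF11 (-0.25, limma adjusted p = 0.028, likewise lower in 2 of 2). Among all tested genes 18.7% were called lower and 15.3% higher with YAE1 than with ABCE1 guides, and 70.2% did not overlap between these groups. The members' share called lower is thus close to that of all genes, and no member was called higher. As given above, neither call held when either ABCE1 replicate was left out. Groups of 2 libraries are too small to look for single outlying values.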

How the results depend on the processing

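Over the alternatives, 399 of 420 single-member values kept their direction and their side of the threshold, and 113 of 126 counts and medians lay within 1.5 times the reported count or within the replicate spread of the reported median (SD 0.042). Many of these values could not change direction. The other filters, the fit of only the 4 libraries compared and the replicate block leave a member's log2 change as it was. So does leaving out a library that is not part of the comparison. A count within 1.5 times can still differ in its split of higher and lower genes, as with centring. Genes called with YAE1 guides, 6517 as reported, were 4546 without control replicate 1. Between YAE1 and ABCE1 guides, the 2 members called became 1 with no filter and with only the 4 libraries compared, to 3 (1 higher) with centring or quantile normalization, and ranged from 0 to 2 when single libraries were left out. Genes called there numbered 2091 with no filter and 1811 to 3721 when single libraries were left out, against 4279. With a mean of at least 5 FPKM, 4761 genes were called with ABCE1 guides, against 7278, because fewer genes were tested. Centring moved the members' median to -0.452 with ABCE1 and -0.474 with YAE1 guides, and leaving out single libraries gave -0.424 to -0.364 with YAE1 guides. Signs turned for values that had not passed: SRSF4 with ABCE1 guides was -0.132 with centring, -0.109 with quantile normalization and -0.032 to 0.045 without either control replicate, TRA2A with YAE1 guides was -0.095 to 0.026 without either control replicate, and TRA2B between the knockouts was 0.004 with centring. With no filter the SRSF11 difference had a limma adjusted p of 0.11. Over all tested genes, deviations of same-numbered libraries were close to uncorrelated between groups (r of -0.053 to -0.009). This does not show whether libraries were handled in pairs, because noise of single genes can hide a small shared shift. A replicate block left 2, 8 and 8 members called (YAE1 against ABCE1, ABCE1 against control, YAE1 against control) and changed no member's call. Over all 12578 tested genes it called 3778, 7058 and 6264, in the same order. Voom on recovered fragments also called 2, 8 and 8 members, beside 4996, 7697 and 7055 of 12577 genes. Apart from the scaling settings and fewer libraries or genes, the cause of these shifts was not tested. Of the 30 replicate gaps of members, 9 exceeded 2 counting standard deviations, and the source of the spread beyond counting error was not tested.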
